A study of Mus musculus with 6 samples.

Results

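Ribosome biogenesis factors are the nucleolar and nuclear proteins that transcribe, modify, cut and fold ribosomal RNA and join it to ribosomal proteins. The list examined here holds 54 of them, RNA polymerase I subunits included, and its members were found by exact gene symbol among the 39017 genes of a count table. All 54 were in the table and all 54 had enough counts to be tested. RNA had been sequenced from induced germinal center B cells (iGBs), which are splenic B cells grown on 40LB feeder cells, a fibroblast line that presents CD40L and BAFF, with IL-4 at 5 ng/ml per the labels (the methods give a lower dose), until day 3.5 after plating. The Control group was 3 Cg1-cre mice (the Cγ1-cre line) and the Prmt1-null group 3 Cg1-cre Prmt1f/f mice, on the C57BL6/J strain, with 2 females and 1 male in each. The Cre is expressed from the Cγ1 immunoglobulin locus and so acts after B cell activation, in both groups, and the cells of a culture need not all have deleted Prmt1. The study's methods describe age-matched groups, and the ages are not given in the sources used here.

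RNA polymerase I transcribes the long precursor of ribosomal RNA from the rDNA repeats. Small nucleolar ribonucleoproteins (snoRNPs) then modify the precursor, and separate sets of assembly factors build the small and the large ribosomal subunit before export to the cytoplasm. In B cells this program is switched on strongly after activation, when cells grow and divide, and MYC is the best known transcription factor that drives it. Several of its proteins, among them fibrillarin, nucleolin and GAR1, carry arginine-glycine-glycine repeats, the kind of sequence that PRMT1 methylates. The comparison asked whether the mRNAs of these factors differed between iGBs with and without Prmt1.

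The promoters of the 4 members with the smallest p are shown to set their sequence beside the MYC site searched for in all members. Each is the RefSeq window of 300 bases on GRCm38.p6, from 250 bases before to 50 bases after the annotated start, printed on the strand of the gene. Capitals would mark the E-box CACGTG, the sequence MYC and MAX bind best, which reads the same on both strands.
Pa2g4 (chr10:128565885-128566184, minus strand): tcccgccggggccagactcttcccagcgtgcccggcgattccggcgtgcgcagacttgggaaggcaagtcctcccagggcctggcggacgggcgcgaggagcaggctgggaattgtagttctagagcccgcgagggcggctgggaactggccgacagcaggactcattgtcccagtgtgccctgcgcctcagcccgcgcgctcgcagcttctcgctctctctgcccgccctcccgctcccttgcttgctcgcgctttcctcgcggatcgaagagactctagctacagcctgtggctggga
Ncl (chr1:86359406-86359705, minus strand): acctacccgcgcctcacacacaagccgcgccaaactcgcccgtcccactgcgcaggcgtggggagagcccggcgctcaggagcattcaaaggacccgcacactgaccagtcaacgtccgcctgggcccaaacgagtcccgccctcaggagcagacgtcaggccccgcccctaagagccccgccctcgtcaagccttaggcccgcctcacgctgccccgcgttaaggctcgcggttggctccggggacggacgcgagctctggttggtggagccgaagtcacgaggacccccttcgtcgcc
Wdr3 (chr3:100162358-100162657, minus strand): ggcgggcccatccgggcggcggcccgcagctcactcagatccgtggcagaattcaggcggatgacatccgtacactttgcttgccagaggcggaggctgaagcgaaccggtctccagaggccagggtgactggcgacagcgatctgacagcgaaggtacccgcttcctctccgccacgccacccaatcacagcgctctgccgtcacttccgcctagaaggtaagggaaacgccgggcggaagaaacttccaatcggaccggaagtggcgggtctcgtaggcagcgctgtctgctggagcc
Mrto4 (chr4:139352527-139352826, minus strand): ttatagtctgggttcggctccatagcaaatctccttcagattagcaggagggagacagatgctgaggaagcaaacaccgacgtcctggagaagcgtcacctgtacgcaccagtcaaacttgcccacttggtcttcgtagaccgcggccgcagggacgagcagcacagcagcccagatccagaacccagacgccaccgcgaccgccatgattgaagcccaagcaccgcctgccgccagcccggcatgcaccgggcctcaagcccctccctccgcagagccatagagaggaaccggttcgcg
None of the 4 windows holds CACGTG. Such windows were at hand for 46 of the 54 members, and 11 of these 46 (23.9%) hold the motif, against 8.09% of the 27025 genes with a window and 11.3% of the 10254 tested genes among them. No window was matched for Npm1, Fbl, Bop1, Rrp12, Rrs1, Gnl2, Tcof1 or Nol6. Stretches around the E-box follow for the carriers with the smallest p, Nop2 and Mybbp1a, and for Rrn3, the only carrier with more than 1 copy. Capitals mark the motif.
Nop2 (chr6:125131783-125131868, plus strand): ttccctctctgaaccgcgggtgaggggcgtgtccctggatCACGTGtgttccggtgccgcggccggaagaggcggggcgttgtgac
Mybbp1a (chr11:72441327-72441376, plus strand): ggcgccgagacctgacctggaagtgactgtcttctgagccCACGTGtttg
Rrn3 (chr16:13780449-13780696, plus strand): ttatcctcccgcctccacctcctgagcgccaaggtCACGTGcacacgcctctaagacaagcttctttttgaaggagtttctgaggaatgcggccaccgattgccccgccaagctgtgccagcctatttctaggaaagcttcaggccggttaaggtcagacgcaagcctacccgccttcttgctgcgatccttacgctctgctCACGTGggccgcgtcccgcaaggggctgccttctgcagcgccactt
In Nop2 the motif starts 60 bases before the annotated start, and in Rrn3 its copies start 215 and 48 bases before it. In Mybbp1a the motif starts at base 41, where the annotated start is base 1. The median log2 fold change was 0.07 for the 11 members with the motif (7 of them above 0) and 0.15 for the 35 without it (27 above 0). Over all tested genes with a window the medians were 0.02 with and 0.01 without the motif. A match describes the letters of the window and is not a measured binding site.

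The libraries held 45343250 to 62774232 counts each, and the 54 members took 0.294% to 0.314% of them in Control and 0.318% to 0.334% in Prmt1-null iGBs. Prmt1 had 3941, 3901 and 4809 normalized counts (counts scaled to a common library size by TMM) in Control and 1734, 1469 and 1469 in Prmt1-null libraries, a log2 fold change of -1.44 (SE 0.095, adjusted p = 1.11e-05, edgeR), the direction the labels state. The summed level of B cell markers was 5970 to 6340 CPM (counts scaled to library size) in Control and 6320 to 6650 in Prmt1-null libraries. Summed plasma cell markers were at 966 to 1090 and 1110 to 1200 CPM, cycling cell markers at 2050 to 2460 and 1980 to 2090 CPM, feeder fibroblast markers at 27.5 to 31.9 and 30.2 to 39.1 CPM, and myeloid markers at 8.92 to 12.3 and 15.2 to 15.6 CPM. The feeder cells had been depleted before RNA was taken, with a biotinylated antibody against H2Kd and microbeads that bind biotin. Of the 4 myeloid markers 3 were above 0 and 1 below, and only Emr1 was called higher (log2 fold change 0.73, adjusted p = 0.0319, edgeR). Emr1 alone was at 5.41 to 7.29 CPM in Control and 9.63 to 11.9 CPM in Prmt1-null libraries, most of the myeloid sum. The log2 fold changes of Csf1r, Itgam and Lyz2 were 0.33, 0.11 and -0.75, and none of these was called. T cell markers summed to at most 1.93 CPM, Lum was at 0 in every library, and 4 of 9 feeder and 3 of 4 T cell markers stayed under 1 CPM. The part of these cells in the results below was not tested, and in bulk RNA a change in the cells present and a change in RNA per cell cannot be told apart. The libraries from males, Control replicate 1 and Prmt1-null replicate 3, deviated together from their group means (r = 0.49 across 13079 genes, which are not independent replicates), so values within each sex are given beside the main result.

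Of the 54 members, only Pa2g4 passed the threshold, and the log2 fold change of 22 lay within 0.1 of 0. Values above 0 were more frequent than below, since 39 of the 54 (72.2%) had a log2 fold change above 0, against 49.9% of the 18268 genes tested. Their median log2 fold change was 0.12, or 1.09-fold, against -0.00082 for all genes tested, and it ran from -0.15 to 0.47, or 0.9-fold to 1.38-fold. A gene was called when its adjusted p (edgeR) was under 0.05 and its normalized counts averaged over 100. By this rule 1 member was called higher and 0 lower, where 1.18% of all genes tested were called, 0.58% higher and 0.602% lower. At an unadjusted p under 0.05 there were 12 members (22.2%) higher and 0 lower, against 6.5% and 7% of all genes tested, and 7.95% and 8.88% of those with normalized counts averaging over 100. With DESeq2, which called 2.44% of its 13091 genes higher and 2.98% lower, the members called were Pa2g4 and Ncl. The 3 Prmt1-null libraries lay above the 3 Control libraries for 14 members (25.9%) and below them for 1, while this held for 9.95% and 9.92% of all genes tested, and for 11.2% and 11.4% of those above the same mean. The 95% interval of the log2 fold change covered 0 for 42 of the 54. The members were written down with results of these data known, so these shares describe the list and do not test it.

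**Figure D1:**
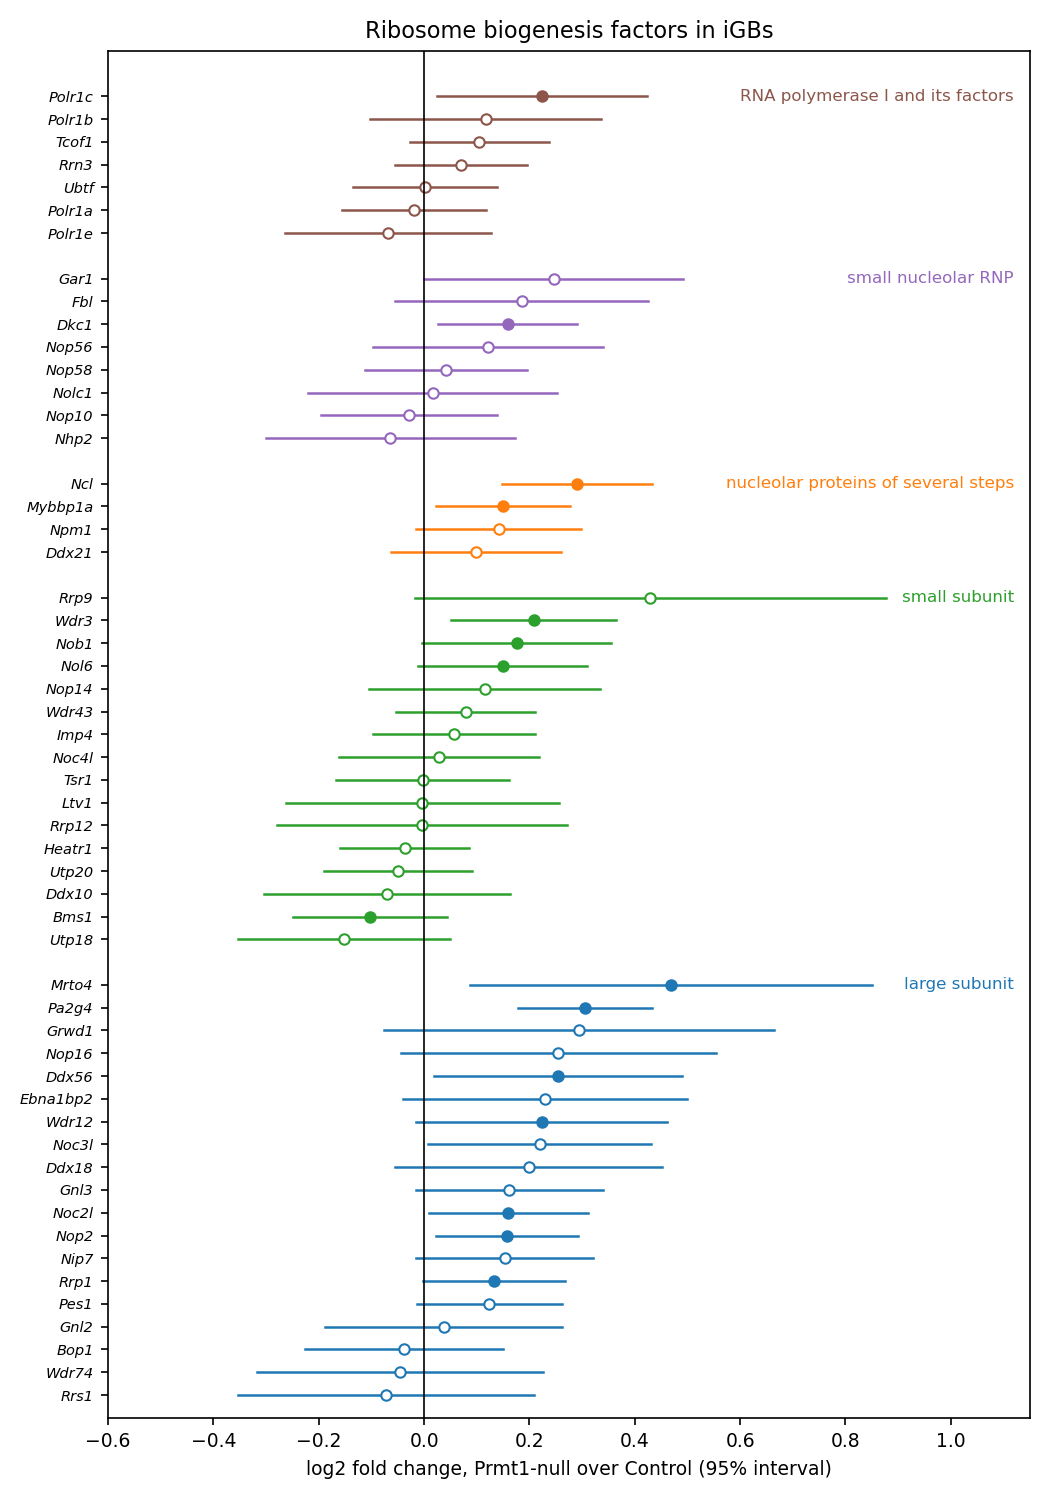
Log2 fold change of each of the 54 members (x axis, Prmt1-null over Control) with its 95% interval from edgeR, grouped by role. Filled points mark members whose groups of 3 libraries do not overlap; 14 of the 15 lie to the right of 0, and Bms1 is the exception.

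The same was summarised for each library. The median over the members of the log2 normalized count, taken relative to each gene's own mean, was -0.08, -0.01 and -0.04 in Control replicates 1, 2 and 3, and 0.03, 0.06 and 0.06 in Prmt1-null replicates 1, 2 and 3. The groups did not overlap, and for all genes tested the same medians lay between 0.00 and 0.01. Within the males, 1 library a group, 41 of the 54 members were higher in the Prmt1-null library, with a median log2 difference of 0.14. Within the females, 2 libraries a group, 40 were higher, with a median of 0.08. Without any 1 library, the median of the fitted log2 fold changes was between 0.10 and 0.14.

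The medians of the role groups are given side by side, and the differences between them were not tested. The median log2 fold change was 0.16 for 19 large subunit factors, of which 16 were above 0. It was 0.15 for the 4 proteins of several steps, all above 0, and 0.08 for 8 snoRNP proteins, of which 6 were above 0. It was 0.07 for RNA polymerase I and its factors, with 5 of 7 above 0, and 0.01 for 16 small subunit factors, with 8 above 0 and 8 below. Over all 16 alternative analyses the median ran from 0.13 to 0.19 for the large subunit factors and from -0.01 to 0.06 for the small subunit factors.

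**Figure D2:**
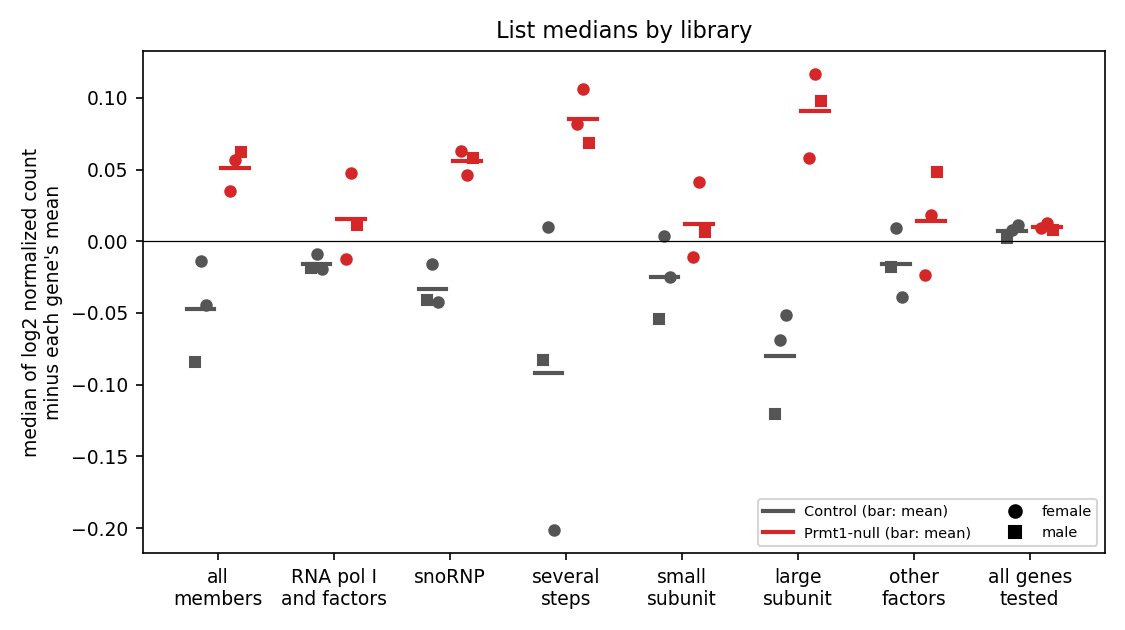
Median, over the genes of each list, of the log2 normalized count minus the gene's mean (y axis), in each of the 6 libraries, with bars at the group means, circles for females and squares for males. The Prmt1-null libraries lie above all Control libraries for all members, for the snoRNP proteins, for the proteins of several steps and for the large subunit factors, and the groups overlap for RNA polymerase I, for the small subunit factors and for the other factors.

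Among RNA polymerase I and its factors, no gene passed the threshold. Polr1c, which encodes a subunit shared by RNA polymerases I and III, had 1401, 1635 and 1549 normalized counts in Control and 1834, 1873 and 1650 in Prmt1-null libraries. The groups did not overlap, and the log2 fold change was 0.22 (SE 0.093, adjusted p = 0.296, edgeR). Tcof1, whose product treacle brings the polymerase and modifying enzymes to rDNA, had 5261, 5713 and 6018 counts against 6097, 6161 and 6015, with overlap (log2 fold change 0.10, 95% interval -0.03 to 0.24). Rrn3, the initiation factor that ties RNA polymerase I to the promoter, had 4747, 4781 and 4562 counts against 4725, 4972 and 5090, with overlap and a log2 fold change of 0.07. Polr1b, the second largest subunit, had a value of 0.12. The largest subunit, Polr1a, and Ubtf, which holds rDNA chromatin open, were close to level at -0.02 and 0.00, with intervals of -0.16 to 0.12 and -0.14 to 0.14. The lowest value was that of Polr1e, a subunit for initiation, with 1495, 1444 and 1389 counts against 1376, 1450 and 1299 and a log2 fold change of -0.07 (SE 0.091, adjusted p = 0.802, edgeR). Per kilobase of exon the levels in Control were highest for Rrn3 and Tcof1, at 19.7 and 19.5 CPM per kilobase, and lowest for Polr1b at 4.2.

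Genes of RNA polymerase I that were not on the list were counted separately. Of 10 such genes, 3 were above 0 and 7 below, with a median log2 fold change of -0.12, and 0 were called by edgeR. The listed 7 had a median of 0.07 with 2 below 0, and the difference between these lists was not tested. The smallest p among them was that of Polr1d, whose product pairs with that of Polr1c in RNA polymerases I and III. Polr1d had 1623, 1981 and 1889 counts in Control and 1532, 1619 and 1581 in Prmt1-null libraries, without overlap (log2 fold change -0.22, SE 0.093, adjusted p = 0.317, edgeR), the opposite sign to Polr1c. Taf1d and Znrd1, which encode a part of the promoter selectivity factor and a small subunit, followed with -0.16 each. For comparison, 13 of 17 RNA polymerase III genes were above 0 with a median of 0.07 and 0 called, Gtf3c4 among them with a log2 fold change of 0.18. In the core of RNA polymerase II, 4 of 7 genes were above 0 and 1 was called. This was Polr2a, the catalytic subunit, with 41814, 40518 and 42539 counts against 35228, 34067 and 33403 (log2 fold change -0.28, SE 0.059, adjusted p = 0.0369, edgeR). Its adjusted p was 0.0814 with females only and 0.0483 to 0.211 without any 1 library, under 0.05 only without Control replicate 3. Of 5 subunits common to the 3 polymerases, 2 were above 0 and 3 below, with a median of -0.01 and 0 called. Polr2l had the smallest p among them, at a low count, with 103.9, 123 and 120.5 counts against 146.9, 218.1 and 212.3, without overlap (log2 fold change 0.73, SE 0.221, adjusted p = 0.139, edgeR).

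Among the snoRNP proteins the H/ACA particle, which turns uridines of ribosomal RNA into pseudouridines, gave values in both directions. Dkc1, the pseudouridine synthase itself, had 2990, 3068 and 3066 normalized counts in Control and 3421, 3452 and 3313 in Prmt1-null libraries. The groups did not overlap and the replicates of each were close, with a log2 fold change of 0.16 (SE 0.061, adjusted p = 0.258, edgeR). Gar1, another protein of the particle and one with arginine-glycine repeats, had 1907, 1717 and 1383 counts against 1900, 1837 and 2199, where only Control replicates 2 and 3 lay below all Prmt1-null libraries (log2 fold change 0.25, SE 0.114, adjusted p = 0.37, edgeR). The other proteins of the same particle, Nhp2 and Nop10, had log2 fold changes of -0.06 and -0.03. Nhp2, the lowest of the snoRNP group, had 926.3, 976.5 and 901.3 counts against 871.5, 820.1 and 991.3, with overlap. In Control, Nop10 stood at 41.5, Gar1 at 17.7, Nhp2 at 14.8 and Dkc1 at 13.4 CPM per kilobase.

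The box C/D particle methylates ribosomal RNA on the ribose, with fibrillarin as its enzyme. Fbl, the fibrillarin gene, had 830.9, 869.2 and 967 counts in Control and 1085, 912.6 and 1035 in Prmt1-null libraries, with overlap (log2 fold change 0.19, SE 0.111, adjusted p = 0.508, edgeR). The scaffold proteins Nop56 and Nop58 had log2 fold changes of 0.12 and 0.04 with overlap, and small nucleolar RNA genes lie within the exons of both on the same strand. Nolc1, a chaperone of snoRNP assembly, was level at 0.02 (95% interval -0.22 to 0.25). Of 10 further snoRNP assembly genes 7 were above 0 and 0 were called by edgeR, with Ruvbl1 (0.36), Pih1d1 (-0.38) and Nhp2l1 (0.11) having the smallest p.

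The abundant nucleolar proteins that act at several steps were all above 0. Ncl, which encodes nucleolin, a protein of rDNA transcription and precursor folding with a long arginine-glycine tail, had 12566, 13924 and 12570 normalized counts in Control and 15623, 16927 and 15230 in Prmt1-null libraries. Every Prmt1-null library was above every Control library. The log2 fold change was 0.29 (SE 0.066, 95% interval 0.15 to 0.43), and the adjusted p of 0.0527 (edgeR) just missed the threshold. It passed with DESeq2 (adjusted p = 0.000754), with limma-voom (0.0323), with the sex of the mouse in the edgeR model (0.0324), with GC and length trends taken out (0.0144) and with no filter on low counts (0.0011). Ncl did not pass with DESeq2 size factors in edgeR, replicate block, females only, chromosome Y kept or no minimum mean. Its adjusted p in these edgeR fits was at most 0.098. With any 1 library left out it was between 0.0806 and 0.279. Ncl lies on the minus strand of chromosome 1 from 86344719 to 86359400 on mm10, and 3 small RNA genes overlap 2.67% of its exons. Mybbp1a, a repressor of RNA polymerase I that also takes part in precursor processing, had 6188, 6811 and 6162 counts against 7165, 7012 and 7082, without overlap (log2 fold change 0.15, SE 0.059, adjusted p = 0.273, edgeR). Npm1, which encodes nucleophosmin, a chaperone of ribosome assembly and the member with the highest level, had 27300, 28950 and 24393 counts against 28234, 31322 and 29421, with overlap (log2 fold change 0.14, SE 0.073, adjusted p = 0.427, edgeR). It stood at 183 CPM per kilobase in Control, against 23.2 for Ncl, but 4 other annotated genes carry near-identical sequence, so its count is uncertain. Ddx21, an RNA helicase of rDNA transcription and snoRNA release, had 9231, 8730 and 7395 counts against 9173, 9043 and 8933, with overlap and a log2 fold change of 0.10.

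**Figure D3:**
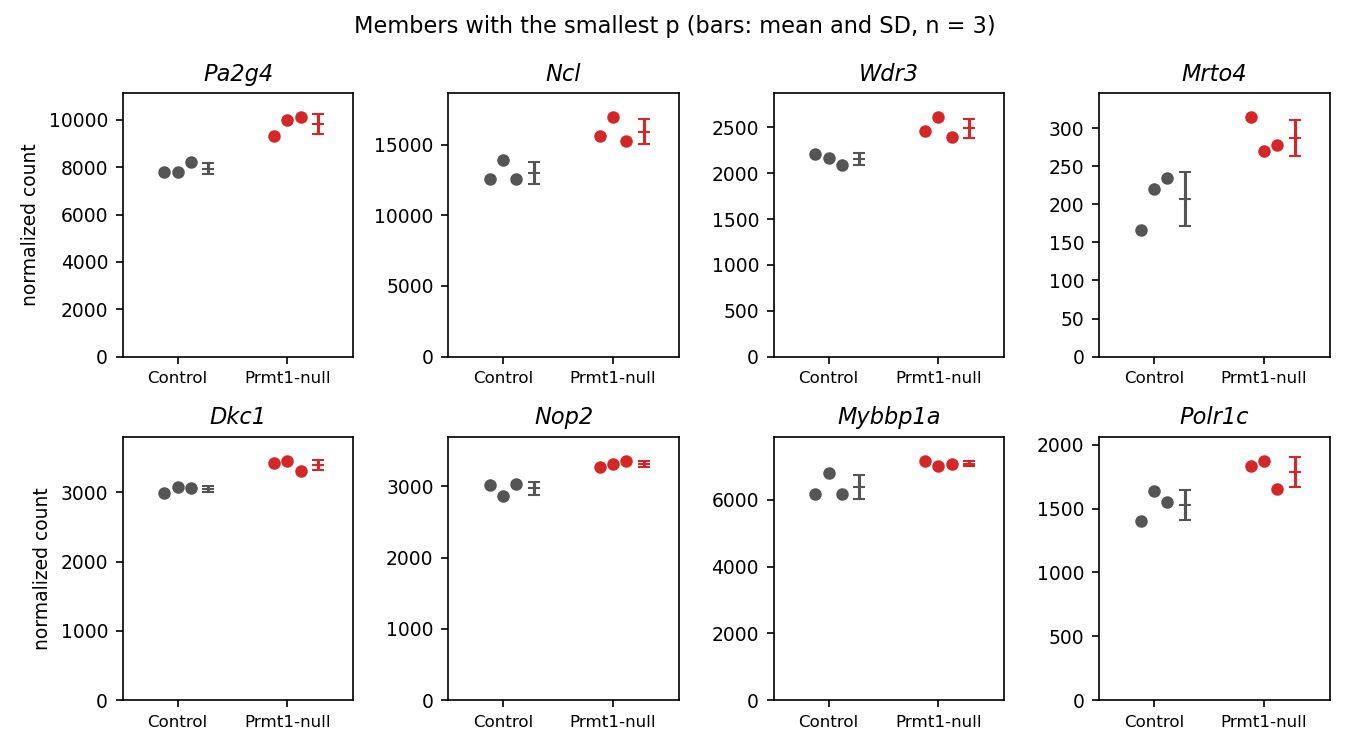
Normalized counts (y axes from 0) of the 8 members with the smallest p in each Control and Prmt1-null library, with the mean and SD of n = 3 mice beside the points. In all 8 panels the Prmt1-null libraries lie above the Control libraries, by a margin that is small beside the level itself.

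Small subunit factors gave values on both sides of 0. Wdr3, a protein of the small subunit processome, the large particle that assembles on the nascent precursor, had 2209, 2167 and 2085 normalized counts in Control and 2456, 2607 and 2399 in Prmt1-null libraries. The groups did not overlap (log2 fold change 0.21, SE 0.073, adjusted p = 0.208, edgeR), and 16.2% of its exon sequence overlaps genes on the opposite strand. Nob1, the nuclease that makes the last cut of the small subunit RNA, had 1506, 1544 and 1523 counts against 1808, 1658 and 1699, without overlap (log2 fold change 0.18, SE 0.084, adjusted p = 0.386, edgeR). Rrp9, a protein of the U3 snoRNP, had few counts, 186, 371.8 and 320.9 against 370.4, 427 and 390.9, and Control replicate 2 lay within the Prmt1-null range. Its log2 fold change of 0.43 therefore came with an SE of 0.208 (adjusted p = 0.396, edgeR). Nol6, also of the processome, was separate between the groups at 0.15.

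Bms1, a GTPase of the processome, was the only member whose Prmt1-null libraries all lay below the Control libraries. It had 2619, 2549 and 2587 counts against 2465, 2335 and 2422 (log2 fold change -0.10, SE 0.068, adjusted p = 0.555, edgeR). Utp18 was the lowest of all members, with 1581, 1765 and 1574 counts against 1453, 1596 and 1378, which overlap (log2 fold change -0.15, SE 0.094, adjusted p = 0.521, edgeR). The very large processome scaffolds Utp20 and Heatr1 had -0.05 and -0.04, the helicase Ddx10 had -0.07, and the late factors Tsr1, Ltv1 and Rrp12 were between -0.01 and 0, each with overlap. The exons of Tsr1 overlap those of Srr, on the opposite strand, over 32.3% of their length, so its count is uncertain. Wdr43, Nop14, Imp4 and Noc4l made up the rest, from 0.03 for Noc4l to 0.12 for Nop14. Of 43 further small subunit factors, 23 were above 0 with a median of 0.02 and 0 were called by edgeR. Rrp7a (0.29), Pno1 (0.22) and Ddx52 (0.18) had the smallest p among them, and their groups did not overlap.

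Large subunit factors held the member that passed the threshold and 7 of the 14 whose Prmt1-null libraries all lay above Control. Pa2g4, whose product (also called EBP1) binds the ribosome and its precursors and acts in growth control, had 7797, 7809 and 8229 normalized counts in Control and 9324, 10011 and 10108 in Prmt1-null libraries. The lowest Prmt1-null library was above the highest Control library. The mean rose from 7945 ± 246 to 9814 ± 427 (SD, n = 3), a log2 fold change of 0.30 (SE 0.059, 95% interval 0.18 to 0.43, adjusted p = 0.0268, edgeR), or 23.5% more. The adjusted p was between 0.0178 and 0.165 with any 1 library left out, and only without Control replicate 3 was it still under 0.05. With females only it was 0.116. Pa2g4 lies on the minus strand of chromosome 10 from 128557766 to 128565987 on mm10, and a gene of the same strand, Gm47275, overlaps 3.21% of its exons. Its level in Control, 51.4 CPM per kilobase, was the highest after that of Npm1.

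Mrto4, which holds the place of the ribosomal stalk during assembly, had the largest log2 fold change of the members, 0.47 (SE 0.177, adjusted p = 0.244, edgeR), at a low count. Its libraries had 166.7, 219.9 and 234.4 counts in Control and 314, 270.3 and 277.2 in Prmt1-null iGBs, without overlap, and 2 pseudogenes carry near-identical sequence. Nop2, a methyltransferase of the large subunit RNA, had 3020, 2866 and 3028 counts against 3275, 3309 and 3358, without overlap (log2 fold change 0.16, SE 0.063, adjusted p = 0.273, edgeR). The helicase Ddx56 (0.25), Noc2l (0.16), Rrp1 (0.13) and Wdr12 (0.22) were also separate between the groups. Like Npm1 and Mrto4, the members Wdr12, Ddx18, Pes1, Nop56 and Ddx21 share near-identical sequence with other annotated transcripts, so their counts are uncertain. Samd11, on the opposite strand, overlaps 20.9% of the exon sequence of Noc2l. Noc3l, which works with Noc2l in early large subunit particles, had a log2 fold change of 0.22 with overlap, because Control replicate 1 was above Prmt1-null replicate 1.

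The PeBoW complex of Pes1, Bop1 and Wdr12, which is needed for cutting the precursor of the large subunit RNA, was uneven. The log2 fold changes were 0.12 for Pes1 (95% interval -0.01 to 0.26), -0.04 for Bop1 (-0.23 to 0.15) and 0.22 for Wdr12 (-0.01 to 0.46), and none was called by edgeR. The GTPase Gnl3 (nucleostemin) had 0.16 and its relative Gnl2 had 0.04. Nip7, Nop16, Ebna1bp2, Grwd1 and Ddx18 lay between 0.15 and 0.29 with overlap. The lowest of the group was Rrs1, which helps to place the small RNA of the large subunit, with 518.1, 436.3 and 450.1 counts against 419.7, 449 and 466 (log2 fold change -0.07, SE 0.131, adjusted p = 0.859, edgeR), and Wdr74 had -0.05. Of 48 further large subunit factors, 32 were above 0 with a median of 0.06 and 0 were called by edgeR. Tex10 (-0.20), Ppan (0.27) and Nsa2 (0.15) had the smallest p, and the groups were separate for Ppan and Nsa2.

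Counted together, the 124 tested genes of the same pathway that were not on the list had 75 values above 0 (60.5%) and a median log2 fold change of 0.04, against 39 of 54 and 0.12 for the members. By edgeR 0 of the 124 were called, and DESeq2 called 0 as well. At an unadjusted p under 0.05 there were 7 higher and 4 lower, shares below the 6.5% and 7% of all genes tested. The groups did not overlap for 11 higher and 5 lower, again below the 9.95% and 9.92% of all genes tested. These included 13 genes of the RNA exosome, which trims precursor ends, with 10 above 0, a median of 0.10 and 0 called, and with Exosc8 (-0.18), Exosc9 (-0.17) and Exosc4 (0.31) having the smallest p.

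**Figure D4:**
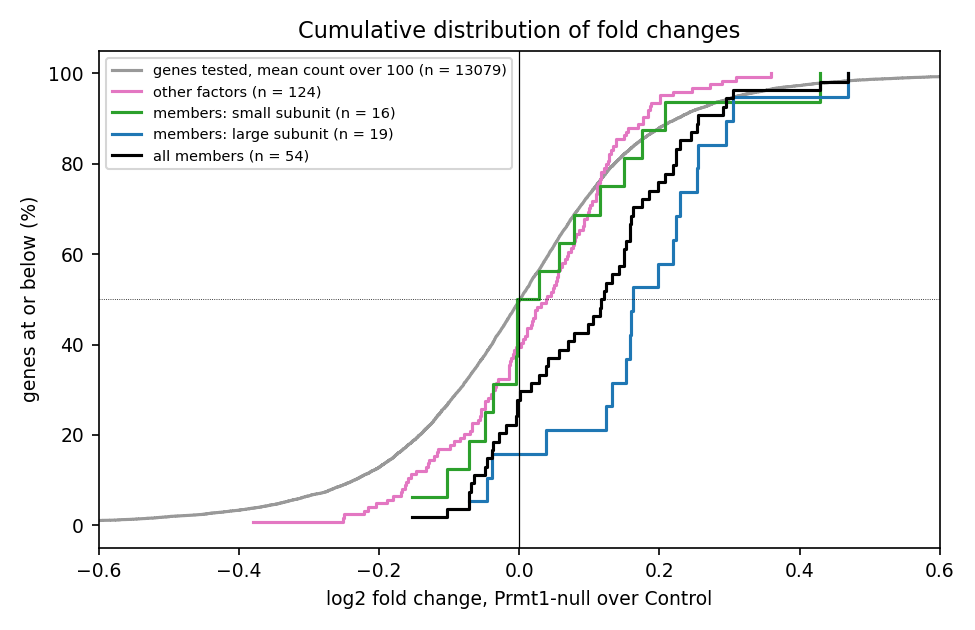
Share of genes (y axis, percent) at or below each log2 fold change (x axis, Prmt1-null over Control) for all members, the large and the small subunit factors among them, the other factors of the pathway, and the 13079 genes tested with a mean normalized count over 100. The median is 0.12 for all members, 0.16 for large subunit factors, 0.01 for small subunit factors and 0.04 for the other factors.

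Myc had 5459, 6241 and 6494 normalized counts in Control and 6193, 5933 and 6425 in Prmt1-null libraries, with overlap and a log2 fold change of 0.03 (SE 0.069, adjusted p = 0.902, edgeR). Max, its partner, had 7340, 7587 and 8306 counts against 7708, 7428 and 7534 (log2 fold change -0.04, SE 0.062, adjusted p = 0.853, edgeR). The 95% interval for Myc was -0.12 to 0.18 and that for Max -0.17 to 0.10.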

How the data were processed

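RNA from iGBs of 3 Control and 3 Prmt1-null mice was sequenced, 1 library per mouse, from a stranded, rRNA-depleted preparation. Per the labels and methods, the authors used Trimmomatic 0.32 for trimming, STAR 2.3.0e for alignment to mm10, and featureCounts 1.4.4 to count primary alignments to at most 2 places on Ensembl exons. The deposited table holds whole, unscaled read counts for each gene, and the strand setting is not given in the sources used here. Groups came from the sample titles. The labels and methods say the replicates are separate mice.

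Counts were fitted in R 4.3.3 with edgeR 4.0.16 (filterByExpr with a minimum count of 10, TMM, glmQLFit and glmQLFTest, group only), without 398 chromosome Y genes as in the study's methods, and p-values were adjusted by Benjamini-Hochberg over 18268 genes. SEs were taken from the fold change and F. The study used DESeq2, which is an alternative here (1.42.0), as are limma-voom (limma 3.58.1), other scaling, no filter, replicate block, sex, females only, chromosome Y kept, no minimum mean, GC and length trends and each library left out. With 3 against 3, a two-sided exact permutation test of a single value cannot give p under 0.1, so none is printed. Genes were placed on GENCODE M21 (GRCm38), 37607 by ID and 804 by symbol. Copies are transcripts of other genes with at least 95% identity over 200 bases. Levels between genes are per kilobase of all annotated exons. A library at 3 counts is at 0.0478 to 0.0662 CPM, counting error only. The fits were tested on simulated data. The members and lists were chosen with earlier results of these data known. Values per library are given for members called by edgeR or DESeq2, the 3 smallest p and the lowest fold change of each role; of other lists the called genes and the 3 smallest p of each are named. Bms1 and the stretches around E-boxes were chosen after their values were seen. Protein sequences were not used here, and 1 gene that the rule names is not reported here.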

Additional observations from a re-analysis of the deposited data

How the results depend on the processing

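The median log2 fold change of the members stayed above 0 in all 16 alternatives and the number above 0 was 37 to 42 of 54. With females only the median was 0.0876 and 0 members were called, against 1. DESeq2's Wald test, limma-voom, no filter on low counts, sex as a covariate and GC and length trends taken out each called 2, Pa2g4 and Ncl. The groups did not overlap for 15 members, 14 higher and 1 lower, against 9.95% and 9.92% of all genes tested. The number was 31 with females only, which sets 2 libraries against 2, and 19 to 25 without any 1 library. Groups of fewer libraries separate more easily, and the shares over all genes were not counted there, so these numbers cannot be set against 15. Without any 1 library the members called were 0 to 1 and the median was 0.1033 to 0.1385. Over all genes tested 216 were called, 675 with no filter, 709 with DESeq2's Wald test, 355 with GC and length trends taken out, 113 with females only and 31 to 340 without any 1 library, lowest without Prmt1-null replicate 2. Replicate numbers name different mice and the deviations of same-numbered libraries correlated at r = -0.307, 0.223 and -0.337 for replicates 1, 2 and 3, positive for replicate 2 only, so the numbers were not taken to pair the libraries. The fit with a replicate block called 151 genes and 1 member, with a median of 0.1217, and Polr2a lost its call there (adjusted p = 0.0821). These causes were not tested.

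The members' median SE was 0.0856 on the log2 scale, and differences of that size were not detectable with 3 mice a group. Signs turned for these genes only among those given values. With GC and length trends taken out Nolc1 had -0.00147, Polr1a had 0.00426, Ubtf had -0.0203, Noc4l had -0.0308, Myc had -0.0112. With females only Wdr74 had 0.000873, Polr1a had 0.0274, Ubtf had -0.0248, Ddx10 had 0.0871, Ltv1 had 0.0269, Imp4 had -0.0121, Myc had -0.0688. With no filter on low counts Rrp12 had 0.000409, Tsr1 had 0.00167, Ltv1 had 0.000945. With the replicate block Tsr1 had 3.37e-05. Without any 1 library the log2 fold changes ran from -0.10 to 0.0346 for Bop1, from -0.14 to 0.0645 for Ddx10, from -0.0614 to 0.12 for Gnl2, from -0.00731 to 0.13 for Imp4, from -0.0595 to 0.0833 for Ltv1, from -0.069 to 0.0185 for Max, from -0.0389 to 0.0801 for Myc, from -0.15 to 0.000322 for Nhp2, from -0.055 to 0.12 for Nolc1, from -0.10 to 0.00906 for Nop10, from -0.0172 to 0.0887 for Nop58, from -0.0405 to 0.0302 for Polr1a, from -0.50 to 0.27 for Polr2k, a shared polymerase subunit, from -0.11 to 0.0916 for Rrp12, from -0.12 to 0.00931 for Rrs1, from -0.058 to 0.0538 for Tsr1, from -0.0183 to 0.0171 for Ubtf, from -0.12 to 0.0214 for Wdr74.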
